A study of Mus musculus with 12 samples.

Results

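The genes described here make, modify and fold proteins at the endoplasmic reticulum (ER) of the mouse liver, and all 46 of them had a row among the 23420 gene symbols of the count tables. Ost4, a very small subunit of the oligosaccharyltransferase, was chosen from these same data for its large difference between the Siah2 KO change of females and that of males. The other 45 were selected by function around it, with earlier results of these data known, and fall into 6 roles: 7 oligosaccharyltransferase subunits with Ost4 among them, 7 translocon subunits, 5 signal peptidase subunits, 15 chaperones and folding enzymes, 5 stress sensors and transcription factors, and 7 genes of ER-associated degradation. Values of Ost4 are therefore a description without a test, and counts of called genes are over the members other than Ost4.

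Secreted and membrane proteins enter the ER through the Sec61 channel, lose their signal peptide to signal peptidase, and receive a preassembled sugar tree on asparagine from the oligosaccharyltransferase. Chaperones of the lumen then hold the chain until it folds, disulfide isomerases pair its cysteines, and chains that fail are drawn back to the cytosol and degraded. When unfolded chains build up, sensors in the ER membrane raise the transcription of many of these same genes, a program known as the unfolded protein response. Hepatocytes export most plasma proteins and carry an extensive ER.

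Liver RNA was measured by QuantSeq 3′ mRNA counting in 12 mice on a C57Bl6 background, 3 for each sex and genotype, all collected at ZT10 (10 h after lights on, with 12 h of light per day). The groups were wild type females, Siah2 KO females, wild type males and Siah2 KO males, at about 20 weeks of age on normal chow and with no treatment. Siah2 encodes a RING ubiquitin ligase, and the KO allele (Siah2-/-) was present in every cell type, so no change can be assigned to hepatocytes from the genotype alone. The 2 genotypes were kept as related homozygous lines, both begun from an intercross of heterozygotes, so line and genotype cannot be told apart. A mouse number names each library and the study describes single livers, although the labels also carry a protocol in which RNA of 3 mice was pooled. In bulk RNA, fewer cells of a type and less RNA per cell cannot be told apart.

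Library totals ran from 1293688 to 4056144 counted reads, so that 1 read was worth 0.244 to 0.757 CPM (counts per 1000000, scaled by TMM). Wild type female 1091 stood apart, with a TMM factor of 0.847 against 0.982 to 1.06 in the other 11 libraries. Counts of calls in females, between wild type sexes and for the female change minus the male change are therefore also given without it. Values of single genes include it unless stated, also where it was the highest or lowest wild type female. Siah2 itself was counted at 16.8, 12.2 and 12.1 CPM in wild type females against 10.1, 12.4 and 9.48 in Siah2 KO females, and at 16.7, 27.0 and 21.1 in wild type males against 9.31, 17.0 and 14.9 in Siah2 KO males. Values of single mice are in the order of the mouse numbers throughout. The genotypes overlapped in both sexes, and since no source used here tells which part was deleted, a 3′ tag may lie outside it and does not check the labels. All 8 hepatocyte markers were detected in every group, with sums of 42098 to 46322 CPM in wild type females and 30182 to 41821 CPM in the other groups. Markers of Kupffer and other immune cells summed to 404 to 557 CPM in wild type females, 301 to 484 in Siah2 KO females, 72.4 to 343 in wild type males and 89.4 to 203 in Siah2 KO males, so that only 1 wild type male came within the female range. The sum of red blood cell markers went the other way, with 8.39 to 25.2 CPM in females and 83.9 to 153 CPM in males. The 4 globin genes on the list were at 0 in every group, which leaves only Alas2 and Slc4a1. Slc4a1 was under 1 CPM in Siah2 KO males, so their sum was almost wholly Alas2. Plasma cells, which have much ER, were followed with 4 markers that had a row, and these summed to 395 to 1160 CPM in wild type females, 702 to 904 in Siah2 KO females and 314 to 491 in males. Of these 4, Tnfrsf17 was under 1 CPM in every group, and so was Mzb1 outside Siah2 KO females. The sums there came almost wholly from the other markers, Igj and Sdc1, and which cells those reads came from was not tested. Markers of bile duct, pancreatic acinar and fat cells summed to at most 55.9, 56.9 and 9.68 CPM. The part of any of these cells in the results was not tested.

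The kit primes at the poly(A) tail and gives about one fragment per transcript, so CPM were compared between genes without division by length. Levels ran from Hspa5, the ER HSP70 chaperone, with a mean of 1703 CPM over 12 mice, through P4hb (1484 CPM), Hsp90b1 (1166 CPM), Calr (703 CPM) and Herpud1 (667 CPM) to Derl3 with 0.894 CPM and 26 reads in all. Hspa5 and P4hb, next to each other in that order, overlapped in their ranges over mice (866 to 2910 CPM and 941 to 2378 CPM). Derl3, a degradation factor, passed the low-count filter in none of the comparisons, and Ern1, the sensor IRE1 alpha, missed it in 3 of the 6. Together the 46 genes took between 0.829% and 1.39% of the scaled counts. Their sum was 8783 to 10820 CPM in wild type females, 8287 to 9874 in Siah2 KO females, 10215 to 13046 in wild type males and 11579 to 13895 in Siah2 KO males, so that only wild type male 1086 fell within the range of the females.

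**Figure D1:**
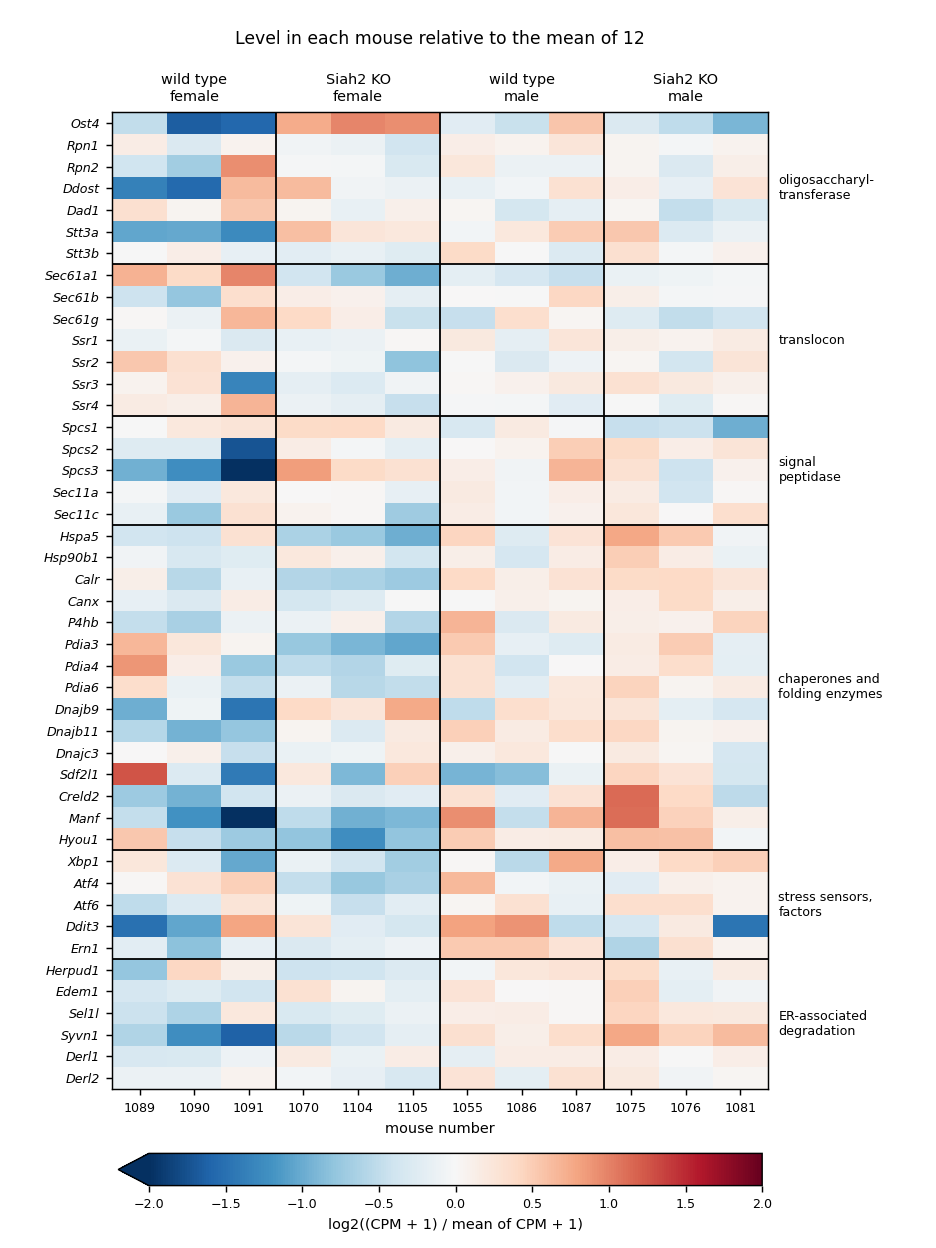
Level of each gene in each mouse, as log2 of (CPM + 1) over its 12-mouse mean (colour), with rows by role, columns by mouse within group and Derl3 left out for its low count; values below the colour scale take its darkest blue. The blue cells of Ost4, Stt3a and Spcs3 in wild type females and of Hspa5, Calr, Pdia3 and Hyou1 in Siah2 KO females are the blocks to look for.

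In females, the differences between Siah2 KO and wild type went both ways within the same machinery. Log2 values by genotype are Siah2 KO over wild type, and those between sexes are females over males. Genes at an unadjusted p under 0.05 (edgeR quasi-likelihood, two-sided) were 5 that were higher in Siah2 KO females (Stt3a, Spcs3, Dnajb9, Dnajb11 and Syvn1, beside 7.3% of all genes) and 6 that were lower (Sec61a1, Pdia3, Atf4, Hyou1, Hspa5 and Ssr4, beside 8.31%). That is 25.6% of the 43 members tested, beside 15.6% of all 9465 genes tested. No member passed Benjamini-Hochberg adjustment over all genes, and neither did any other gene (0%). The smallest adjusted p of a member was 0.0793. By limma-voom 0 members were called (beside 0% of all genes), and by DESeq2 5 (Atf4, Dnajb9, Pdia3, Sec61a1 and Stt3a), beside 3.7% of all genes. A fit that left out mouse 1091 gave 9 edgeR calls, beside 9.64% of all genes, namely Atf4, Ddost, Dnajb11, Hyou1, Pdia3, Pdia4, Sec61a1, Spcs3 and Stt3a. The median log2 fold change of the members was −0.01, beside −0.03 over all genes tested.

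In males, no member passed adjustment among 44 tested (0% of all 8823 genes did), with DESeq2 (beside 0.037% of all genes) and limma-voom (beside 0%) also at 0. Unadjusted p was under 0.05 for 2 members, Spcs1 at a log2 fold change of −0.59 (SE 0.21) and Syvn1 at 0.35 (SE 0.16), beside 4.05% of all genes (2.43% lower and 1.62% higher). Leaving out wild type male 1086 reduced these to 0 (beside 5.2% of all genes), and leaving out wild type male 1087 raised them to 4 (beside 3.15%). With both sexes combined and no term for sex, 0 of 43 members passed by edgeR, DESeq2 or limma-voom, beside 0.0111%, 0.0056% and 0% of all genes. There, 2 members had an unadjusted p under 0.05 (beside 5.65%), both lower (beside 3.66%), Atf4 at −0.52 (SE 0.20) and Sec61a1 at −0.63 (SE 0.26).

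The test of the female change minus the male change called 1 of 44 members, Sec61a1, beside 0.255% of all 9806 genes tested (0.0918% in its direction). At an unadjusted p under 0.05 there were 10 members, 5 in each direction, beside 14.1% of all genes. Those with a more positive change in females were Stt3a, Spcs3, Dnajb9, Dnajb11 and Spcs1 (beside 7.12% of all genes), and those with a more negative one were Sec61a1, Pdia3, Hspa5, Atf4 and Ssr4 (beside 6.98%). The Sec61a1 call was lost with a GC content offset and in 10 of 12 fits that left out 1 mouse, while leaving out wild type female 1091 gave 5 calls (Ddost, Pdia3, Sec61a1, Spcs3 and Stt3a), beside 5.15% of all genes. DESeq2 called 4 members (Dnajb11, Pdia3, Sec61a1 and Stt3a, beside 3.89%) and limma-voom 2 (Sec61a1 and Stt3a, beside 0.286%). The female and male changes, which share no mice, had opposite signs for 26 of 43 members (60.5%), beside 55.2% of 8659 genes tested in both.

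**Figure D2:**
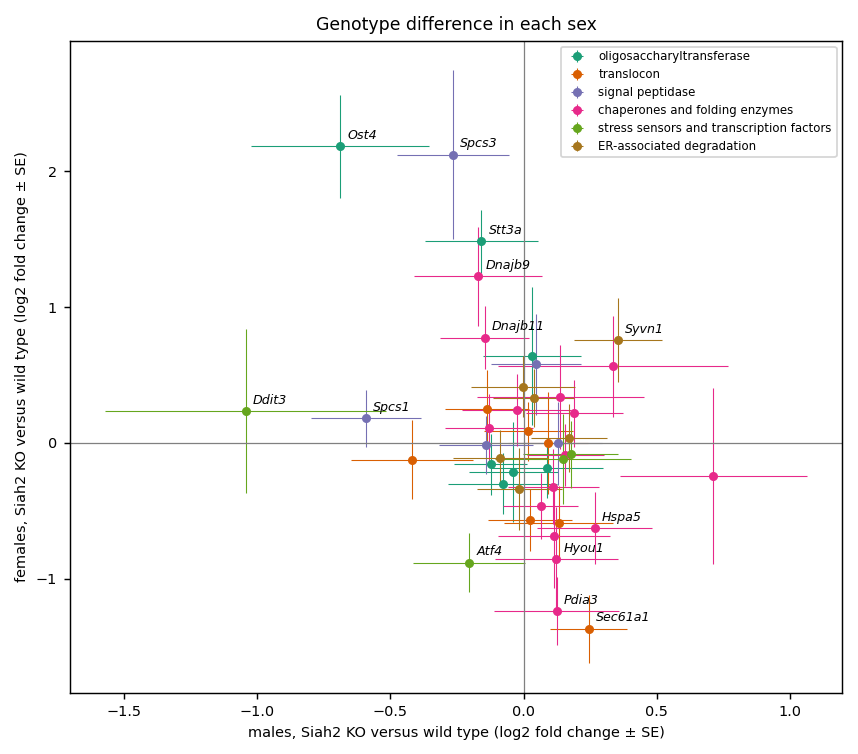
Log2 fold change of Siah2 KO over wild type in males (horizontal) and females (vertical) with standard errors as bars, 1 point per gene tested in both sexes, coloured by role. Values in females run from 2.19 for Ost4 to −1.37 for Sec61a1, and values in males from 0.71 for Sdf2l1 to −1.04 for Ddit3.

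Most members called between females and males were lower in females. Among Siah2 KO mice, 12 of 43 members were called, beside 11.5% of all 9102 genes tested, and 11 of the 12 were lower in females (5.78% of all genes were called lower and 5.69% higher). Those 11 were Hspa5, Calr, Hyou1, Manf, Pdia3, Pdia6, Syvn1, Sel1l, Xbp1, Atf4 and Sec61a1, and the 1 called higher in females was Spcs1. Among wild type mice, 2 of 44 were called, Stt3a and Dnajb11, both lower in females, beside 1.39% of all 9335 genes (0.707% lower and 0.686% higher). At an unadjusted p under 0.05 there were 21 members among Siah2 KO mice (beside 26.1%), 17 lower (beside 12.9%) and 4 higher (beside 13.2%), and 7 among wild type mice (beside 15.2%), 6 lower (beside 6.85%) and 1 higher (beside 8.4%). The median log2 difference of the members was −0.26 in Siah2 KO mice and −0.24 in wild type mice, beside 0.00 and 0.05 over all genes tested. Members were negative in both genotypes, which share no mice, in 26 of 43 cases (60.5%), beside 26.3% of 8894 genes.

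Single mice and settings moved these counts. Leaving out 1 mouse gave 7 to 13 calls among Siah2 KO mice. There were 7 without mouse 1081 (beside 5.14% of all genes) or mouse 1104 (beside 5.97%), and 13 without mouse 1105 (beside 11.2%). A fit of all 12 mice gave 6 (Calr, Hspa5, Hyou1, Pdia3, Spcs1 and Syvn1), beside 3.59%. Among wild type mice the count was 6 without wild type female 1091 (beside 7.73%), with Stt3a and Dnajb11 among them. It was 1, Syvn1, without wild type female 1089 (beside 0.896%) and 0 without any other mouse (beside 0.451% to 0.94%). Both Stt3a and Dnajb11 thus lost their call in each fit that kept 1091 and left out another mouse. Whether the sex difference itself differed between genotypes is the same test as the female change minus the male change. In the main edgeR fit that test called Sec61a1 alone among these genes. Stt3a was also called by DESeq2 and limma-voom, and Dnajb11 and Pdia3 by DESeq2 only of these methods.

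**Figure D3:**
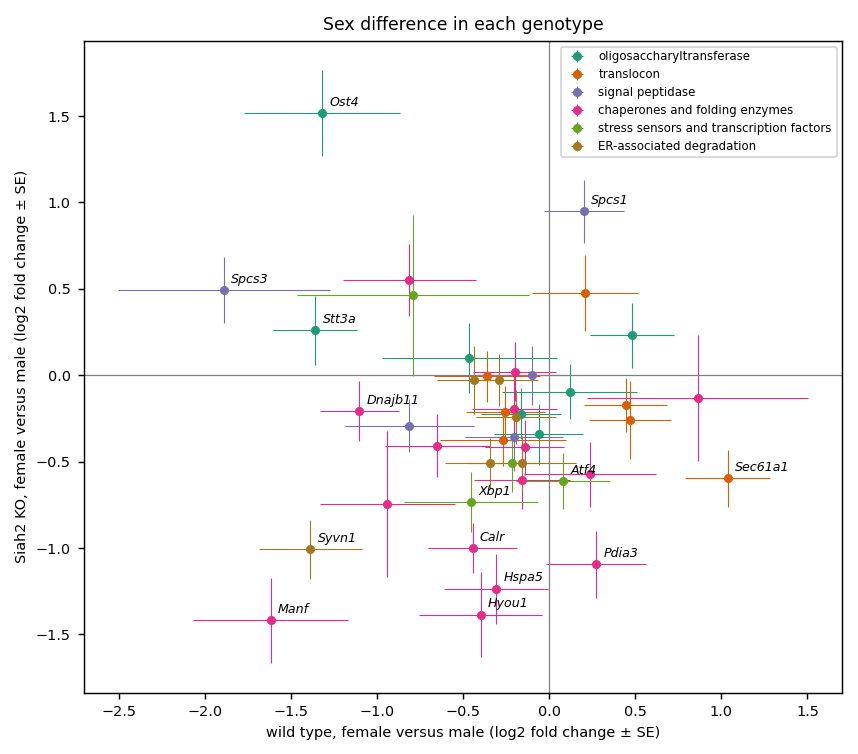
Log2 fold change of females over males in wild type (horizontal) and Siah2 KO mice (vertical) with standard errors as bars, 1 point per gene tested in both, coloured by role. Most points lie at lower left, while Ost4, Stt3a and Spcs3 lie at upper left and Sec61a1 and Pdia3 at lower right.

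Ost4 sits in the membrane beside the catalytic subunit of the oligosaccharyltransferase. It was at 11.1, 4.45 and 4.72 CPM in wild type females against 27.4, 32.5 and 31.4 in Siah2 KO females, and at 13.6, 11.5 and 24.1 in wild type males against 13.0, 11.1 and 8.06 in Siah2 KO males. All Siah2 KO females were above all other 9 mice. Wild type females 1090 and 1091 had the lowest values of the 12, while 1089 lay within the range of the Siah2 KO males, and 31, 15 and 14 reads stood behind the wild type female values. The log2 fold change of Siah2 KO over wild type was 2.19 (SE 0.38) in females and −0.69 (SE 0.33) in males, a difference of 2.87 (SE 0.52) by which the gene was selected. RefSeq places Ost4 on the reverse strand of chromosome 5 (chr5:30906516-30907807, GRCm38.p6), overlapping Agbl5, which had a mean of 0.71 CPM. The 250 bases shown precede a RefSeq start that lies inside this range, so the end of the stretch overlaps the gene as placed here. They are shown because the list was built around this gene, and none of the ER stress motifs described with the chaperones was found in them or in the next 50 bases.
Ost4, chr5:30907789-30908038, strand -: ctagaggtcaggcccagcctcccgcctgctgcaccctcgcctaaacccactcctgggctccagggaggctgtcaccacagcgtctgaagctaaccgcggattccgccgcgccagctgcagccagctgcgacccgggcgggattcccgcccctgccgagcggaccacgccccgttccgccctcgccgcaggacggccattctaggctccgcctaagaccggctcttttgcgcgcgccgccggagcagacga

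Stt3a, the catalytic subunit that glycosylates chains as they enter the ER, was at 113, 115 and 95.8 CPM in wild type females against 354, 276 and 269 in Siah2 KO females, and at 226, 269 and 334 in wild type males against 341, 193 and 215 in Siah2 KO males. All wild type females were below all other 9 mice. It passed adjustment in no genotype comparison, with log2 fold changes of 1.48 (SE 0.23, adjusted p = 0.0793) in females and −0.16 (SE 0.21) in males and a difference of 1.64 (SE 0.34, adjusted p = 0.0583). Between wild type sexes it was called, lower in females at −1.36 (SE 0.24, adjusted p = 0.0240). With 1 mouse left out, that call held only without wild type female 1091, with an adjusted p up to 0.166 in the other fits. For Stt3b, the alternative catalytic subunit that can also act after entry, the log2 fold change was −0.19 (SE 0.22) in females, from levels of 39.1 to 42.0 CPM in Siah2 KO and 41.5 to 51.0 in wild type. The ratio of Stt3a to Stt3b was 2.24 to 2.44 in wild type females, 6.57 to 8.85 in Siah2 KO females, 3.68 to 8.74 in wild type males and 4.24 to 5.87 in Siah2 KO males. The last 500 nucleotides of the Stt3a transcript have a GC content of 29.6%, and with a GC content offset its change in females was 1.31.

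The other subunits showed no common direction. Ddost, a noncatalytic subunit, was at 33.3, 28.8 and 134 CPM in wild type females, where the highest value is that of 1091, and at 134, 82.1 and 79.4 in Siah2 KO females. Rpn2, a ribophorin of the same complex, was likewise highest in 1091, at 119.8, 97.9 and 305 CPM in the wild type females. Rpn1 and Dad1 had log2 fold changes of −0.16 and −0.30 in females and −0.12 and −0.08 in males, none at an unadjusted p under 0.05. Apart from Stt3a, no oligosaccharyltransferase subunit other than Ost4 reached that limit in any of the 6 comparisons.

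**Figure D4:**
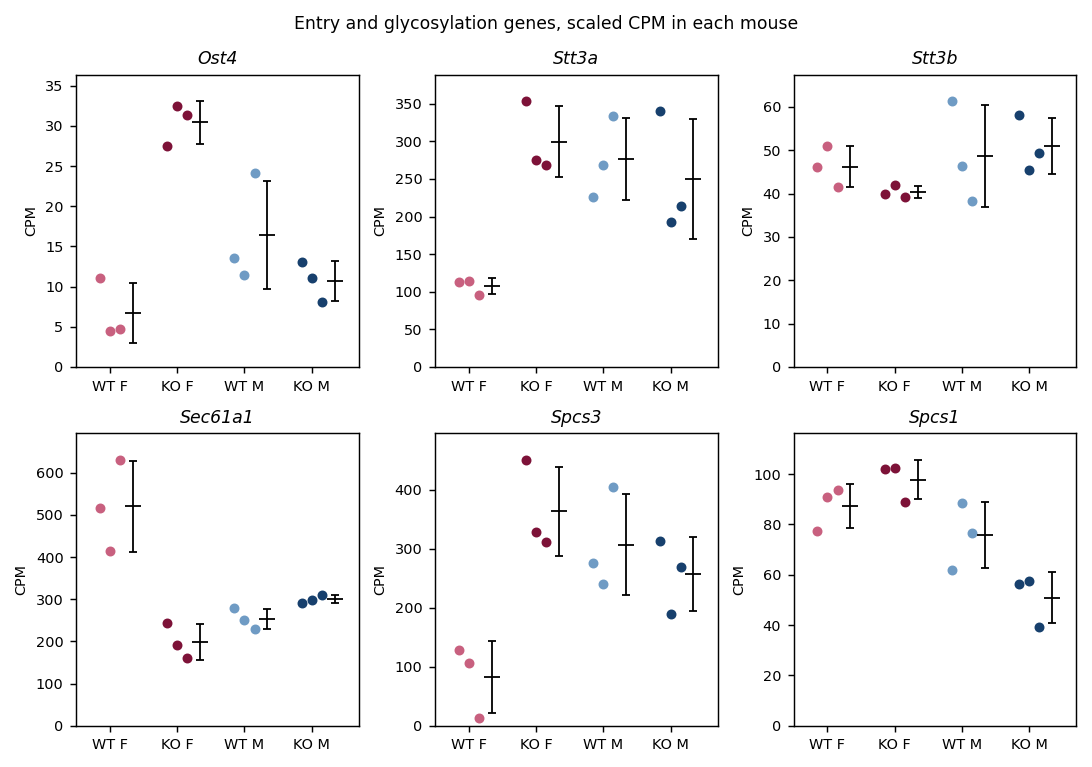
Scaled CPM in each of 3 mice per group (points) with the mean ± SD beside them (black), for 3 oligosaccharyltransferase subunits, the channel subunit Sec61a1 and 2 signal peptidase subunits; WT, wild type; KO, Siah2 KO; F, female; M, male. Wild type females lie lowest for Stt3a and Spcs3 and highest for Sec61a1, 2 of the 3 lie lowest for Ost4, and for Stt3b the groups overlap except Siah2 KO females (39.1 to 42.0 CPM) and Siah2 KO males (45.5 to 58.1 CPM).

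Sec61a1, the pore-forming subunit of the translocation channel, had values of the opposite sign to those of Stt3a in females. It was at 516, 415 and 630.1 CPM in wild type females against 244, 190.5 and 162 in Siah2 KO females, and at 279, 251 and 229.9 in wild type males against 290.4, 299 and 311 in Siah2 KO males. All wild type females were above all other 9 mice. The log2 fold change was −1.37 (SE 0.25, adjusted p = 0.0793) in females and 0.24 (SE 0.14) in males, and the difference between them passed the test at −1.61 (SE 0.28, adjusted p = 0.0460). With a GC content offset the difference was −1.34 and no longer passed. Between sexes Sec61a1 was higher in wild type females (1.04 (SE 0.25, adjusted p = 0.0763)) and lower in Siah2 KO females (−0.60 (SE 0.16, adjusted p = 0.0296)), of which only the second passed.

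The small channel subunit Sec61b overlapped between the female groups. Its level was 169.9, 131 and 286 CPM in the wild type females against 248, 239 and 198 for Siah2 KO, with a log2 fold change of 0.25 (SE 0.28). Sec61g, the other small channel subunit, was higher in Siah2 KO females than in Siah2 KO males at 0.48 (SE 0.22, unadjusted p = 0.0471, adjusted p = 0.184). The ratio of Sec61a1 to Sec61b was 2.21 to 3.16 in wild type females, 0.796 to 0.985 in Siah2 KO females, 0.765 to 1.23 in wild type males and 1.19 to 1.39 in Siah2 KO males. Of the translocon-associated TRAP subunits, Ssr4 was at an unadjusted p under 0.05 in females (−0.57 (SE 0.23)), and its wild type females (141, 136 and 201 CPM) were above all other 9 mice, with a female change minus male change of −0.59 (SE 0.27). Ssr3 (150.2, 175 and 56.7 CPM in wild type females) was lowest of all 12 mice in 1091 and differed by −0.37 (SE 0.15, unadjusted p = 0.0239, adjusted p = 0.121) between Siah2 KO sexes, and Ssr1 had log2 fold changes of only 0.08 and 0.02 in females and males. Ssr2 did not overlap between the female groups, with 72.3, 61.7 and 52.6 CPM in wild type and 48.1, 46.3 and 27.8 in Siah2 KO, at a log2 fold change of −0.59 (SE 0.27, unadjusted p = 0.0559, adjusted p = 0.336).

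Signal peptidase subunits also differed among themselves. Spcs3, an accessory subunit needed for cleavage, was at 129, 106 and 13.5 CPM in wild type females against 451, 328 and 311 in Siah2 KO females, and at 276, 241 and 404 in wild type males against 313, 190.0 and 269 in Siah2 KO males. All wild type females were below all other mice, and the lowest, at 13.5 CPM, was 1091. The log2 fold change in females was 2.12 (SE 0.62, unadjusted p = 0.00651, adjusted p = 0.154), and without 1091 it was 1.63 and passed, with an adjusted p of 0.00290. Its female change minus male change was 2.39 (SE 0.71, unadjusted p = 0.00384, adjusted p = 0.137), and its log2 differences between sexes were 0.49 (SE 0.19) in Siah2 KO and −1.89 (SE 0.61) in wild type mice. Spcs2 was also lowest in 1091 (107, 107 and 38.1 CPM in wild type females against 142, 124 and 112 in Siah2 KO females). Spcs1, a further accessory subunit, was lowest in Siah2 KO males, at 77.3, 90.8 and 93.8 CPM in wild type females against 102, 103 and 88.8 in Siah2 KO females, and at 62.1, 88.4 and 76.6 in wild type males against 56.2, 57.4 and 39.3 in Siah2 KO males. It was called higher in Siah2 KO females than in Siah2 KO males, at 0.95 (SE 0.18, adjusted p = 0.00402), had a female change minus male change of 0.77 (SE 0.29), and overlaps Glt8d1 (mean 6.12 CPM) on the genome. The catalytic subunits Sec11a and Sec11c had log2 fold changes of −0.01 and −0.00 in females and −0.14 and 0.13 in males. The 5 subunits summed to 349 to 474 CPM in wild type females and to 537 to 869.5 CPM in the other 9 mice, without overlap. Most of that gap lay in Spcs3. Its group means were 82.6 CPM in wild type females, 363 in Siah2 KO females, 307 in wild type males and 257 in Siah2 KO males. Those of Sec11a were 96.7, 94.5, 104 and 94.3 CPM in the same order, so the sum does not describe every subunit.

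Many genes of the folding machinery carry an ER stress response element (ERSE: CCAAT, then 9 bases of any kind, then CCACG), at which the transcription factors ATF6 and XBP1 are known to act with NF-Y. A RefSeq window of 300 bases around the start (250 before, 50 after, GRCm38.p6) was found for 38 of the 46 members. Searched on both strands, it held an ERSE in 9 of the 38, Hspa5, Hsp90b1, Calr, Canx, Pdia6, Dnajc3, Creld2, Syvn1 and Derl3, beside 0.137% of 27025 gene symbols with such a window. The related ERSE-II (ATTGG, 1 base of any kind, then CCACG) was found in Dnajb11 and Herpud1, beside 0.0444%. The letters TGACGTGG of the XBP1 element were in 0 of the 38 (0.714% of all symbols), and TGATGCAA, which ATF4 and CHOP are known to bind, was in Herpud1 alone (1.03%). ERSE and ERSE-II share the letters CCACG and, read on one strand, CCAAT or its complement, but no member held both. The matches are shown with 10 bases on each side, on the strand that carries the motif, with the fixed letters in capitals and the coordinates of the motif itself; first the ERSE.
Hspa5, chr2:34772025-34772043, strand +: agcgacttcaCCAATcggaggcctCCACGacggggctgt
Calr, chr8:84847075-84847093, strand +: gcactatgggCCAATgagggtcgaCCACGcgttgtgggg
Derl3, chr10:75893242-75893260, strand -: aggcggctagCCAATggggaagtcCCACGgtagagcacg
Hsp90b1, chr10:86705638-86705656, strand -: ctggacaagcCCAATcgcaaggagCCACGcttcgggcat
Hsp90b1, chr10:86705533-86705551, strand +: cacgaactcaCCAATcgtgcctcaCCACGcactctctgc
Canx, chr11:50325800-50325818, strand -: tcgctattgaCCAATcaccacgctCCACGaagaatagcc
Pdia6, chr12:17266491-17266509, strand +: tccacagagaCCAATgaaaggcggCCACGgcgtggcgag
Dnajc3, chr14:118937827-118937845, strand +: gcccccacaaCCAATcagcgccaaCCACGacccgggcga
Creld2, chr15:88819520-88819538, strand -: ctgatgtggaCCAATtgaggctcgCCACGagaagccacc
Syvn1, chr19:6046532-6046550, strand +: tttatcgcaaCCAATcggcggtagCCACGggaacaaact

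ERSE-II matches follow in the same form.
Herpud1, chr8:94386377-94386387, strand +: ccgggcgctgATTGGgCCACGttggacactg
Dnajb11, chr16:22857852-22857862, strand +: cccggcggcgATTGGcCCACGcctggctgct

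The 250 bases before the Hspa5 start are shown as the setting of one such match, which begins 65 bases before the start, with its fixed letters in capitals.
Hspa5, chr2:34771840-34772089, strand +: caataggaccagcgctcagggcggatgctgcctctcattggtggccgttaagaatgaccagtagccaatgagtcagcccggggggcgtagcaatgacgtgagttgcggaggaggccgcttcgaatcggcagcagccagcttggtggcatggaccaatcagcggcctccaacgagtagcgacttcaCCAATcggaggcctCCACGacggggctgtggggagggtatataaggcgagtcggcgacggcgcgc

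Of the 11 members with an ERSE or ERSE-II, 10 were tested in every comparison, and Derl3 in none. In Siah2 KO females against Siah2 KO males, 9 of these 10 were lower (beside 50.1% of all genes) and 4 were called (Hspa5, Calr, Pdia6 and Syvn1, beside 11.5% of all genes), with log2 differences from −1.24 to 0.02 and a median of −0.56. Of the 25 tested members with a window but no match, 18 were lower and 5 were called, with a median of −0.17. In wild type females against wild type males, 10 of 10 with a match were lower at a median of −0.25 and 1 was called (Dnajb11), and 17 of 26 without one were lower at a median of −0.22 with 1 called (Stt3a), beside 45.3% of all genes lower and 1.39% called. In Siah2 KO females against wild type females, the motif-bearing genes split into 5 higher and 5 lower with a median of 0.01, beside −0.01 for those without a match. These are counts of exact letters in a window, with no mismatch allowed, and do not show binding. A member without a match may thus carry a variant of the motif, and members without a window are in neither class. The members were chosen by function, ER stress genes among them, so their high share of ERSE matches is no separate result.

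Between Siah2 KO sexes, 6 of 15 chaperones and folding enzymes were called, all lower in females, beside 5.78% of all genes called lower. In the other roles the calls were 2 of 4 stress sensors and transcription factors, 2 of 6 degradation genes, 1 of 7 translocon subunits, 1 of 5 signal peptidase subunits and 0 of 6 oligosaccharyltransferase subunits. All of these were lower in females except the signal peptidase subunit Spcs1, which was higher. Over all genes, 11.5% were called in either direction. Hspa5, which binds chains as they emerge from the channel, was at 1308, 1272 and 2103 CPM in wild type females against 1096, 1018 and 866 in Siah2 KO females, and at 2296, 1428 and 2065 in wild type males against 2910.2, 2456 and 1618 in Siah2 KO males. All Siah2 KO females were below all other 9 mice. The log2 difference between Siah2 KO sexes was −1.24 (SE 0.20, adjusted p = 0.00119), while between wild type sexes it was −0.31 (SE 0.30, adjusted p = 0.680). The genotype change was −0.63 (SE 0.26, unadjusted p = 0.0381, adjusted p = 0.284) in females and 0.27 (SE 0.21) in males, and their difference of −0.89 (SE 0.37, unadjusted p = 0.0268, adjusted p = 0.272) did not pass. With 1 mouse left out, the change in females ran from −0.75 to −0.38. Rabepk, which overlaps Hspa5, was at a mean of 10.6 CPM.

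Hsp90b1, the ER HSP90 chaperone, was close to Hspa5 in level but not in pattern, at 1109.6, 929 and 989 CPM in wild type females against 1342, 1250.2 and 899 in Siah2 KO females, and at 1263, 924 and 1295 in wild type males against 1637, 1288 and 1063 in Siah2 KO males. Its groups overlapped throughout, with log2 fold changes of 0.22 (SE 0.25) in females and −0.20 (SE 0.19) between Siah2 KO sexes. The ratio of Hspa5 to Hsp90b1 was 0.814 to 0.963 in Siah2 KO females, against 1.18 to 2.13 in wild type females, 1.55 to 1.82 in wild type males and 1.52 to 1.91 in Siah2 KO males. P4hb, the main protein disulfide isomerase, was at 1061, 941 and 1369 CPM in wild type females against 1361, 1593 and 987 in Siah2 KO females, and at 2378, 1217 and 1689 in wild type males against 1611, 1577 and 2019.6 in Siah2 KO males. It had an unadjusted p under 0.05 between Siah2 KO sexes only, at −0.41 (SE 0.18, unadjusted p = 0.0441, adjusted p = 0.177).

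Calr and Pdia3 work as a pair, the lectin chaperone calreticulin holding glycosylated chains and the isomerase ERp57 acting on them. Calr was at 760.1, 479 and 632 CPM in wild type females against 468, 453 and 423 in Siah2 KO females, and at 932, 762 and 855 in wild type males against 921, 925 and 828 in Siah2 KO males. Siah2 KO females were below every other mouse and wild type females below wild type males. The difference between Siah2 KO sexes was −0.998 (SE 0.15, adjusted p = 4.44e-04), and the genotype change in females was −0.46 (SE 0.24, unadjusted p = 0.0860, adjusted p = 0.397). Pdia3 was at 168, 123 and 109 CPM in wild type females against 62.0, 55.5 and 50.9 in Siah2 KO females, and at 152, 93.4 and 87.6 in wild type males against 118, 150.5 and 92.6 in Siah2 KO males, again lowest in Siah2 KO females. It differed by −1.09 (SE 0.19, adjusted p = 0.00209) between Siah2 KO sexes and by 0.27 (SE 0.29, adjusted p = 0.711) between wild type sexes. The genotype changes were −1.24 (SE 0.25, unadjusted p = 5.68e-04, adjusted p = 0.0962) in females and 0.12 (SE 0.23) in males, with a difference of −1.35 (SE 0.37, unadjusted p = 0.00197, adjusted p = 0.109). Canx, the membrane lectin calnexin, had log2 values of −0.09 for the change in females and −0.42 (SE 0.16, unadjusted p = 0.0191, adjusted p = 0.106) between Siah2 KO sexes.

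**Figure D5:**
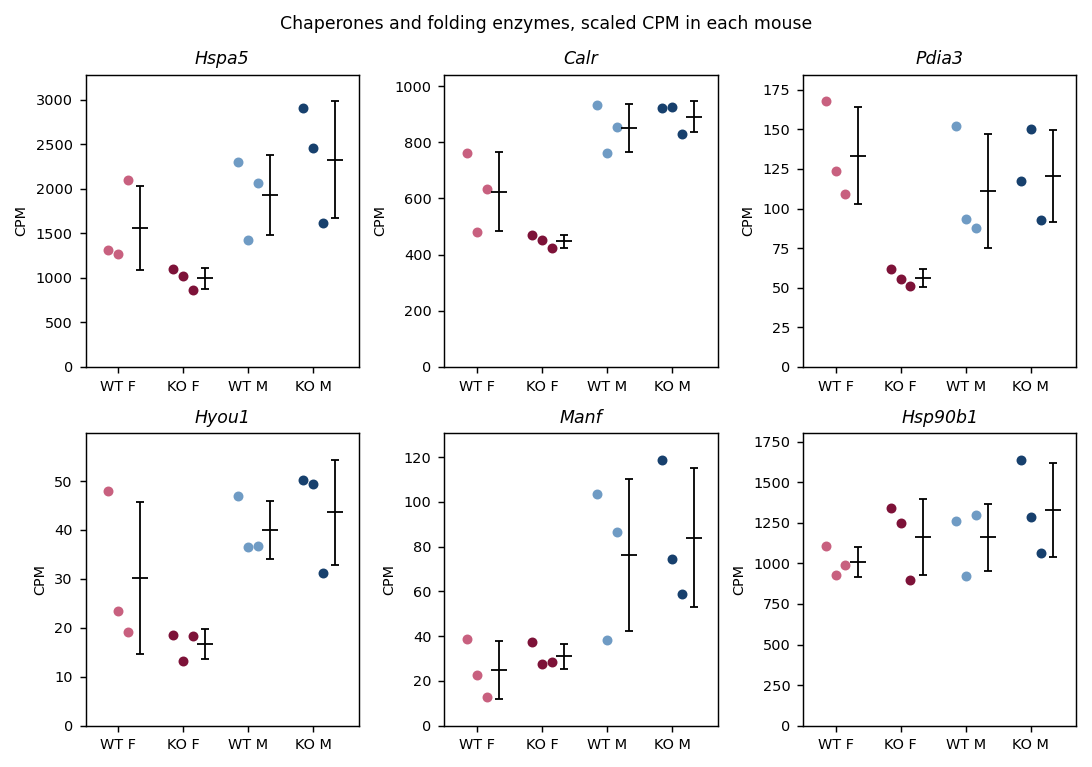
Scaled CPM in each of 3 mice per group (points) with the mean ± SD beside them (black), for 6 chaperones and folding enzymes; WT, wild type; KO, Siah2 KO; F, female; M, male. Siah2 KO females lie below the other 9 mice for Hspa5, Calr, Pdia3 and Hyou1, both female groups are low for Manf, and Hsp90b1 overlaps in all 4 groups.

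Hyou1, a nucleotide exchange factor for Hspa5, was at 47.9, 23.4 and 19.2 CPM in wild type females against 18.5, 13.1 and 18.4 in Siah2 KO females, and at 46.9, 36.5 and 36.6 in wild type males against 50.3, 49.3 and 31.3 in Siah2 KO males. It was lowest in Siah2 KO females, and the wild type female range was wide because 1089 was at 47.9 CPM. The log2 difference between Siah2 KO sexes was −1.39 (SE 0.24, adjusted p = 0.00199), and the genotype change in females was −0.85 (SE 0.38, unadjusted p = 0.0481, adjusted p = 0.314). Manf, a small secreted cofactor of Hspa5, was at 38.6, 22.9 and 12.8 CPM in wild type females against 37.5, 27.4 and 28.4 in Siah2 KO females, and at 104, 38.5 and 86.7 in wild type males against 119, 74.4 and 58.9 in Siah2 KO males. Both female groups were low, at −1.42 (SE 0.25, adjusted p = 0.00182) between Siah2 KO sexes and −1.62 (SE 0.45, adjusted p = 0.130) between wild type sexes, of which only the former passed.

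Pdia6, an isomerase that also restrains the sensor IRE1 alpha, was at 311, 222 and 175 CPM in wild type females against 226, 165 and 174 in Siah2 KO females, and at 299.7, 210.3 and 282 in wild type males against 332, 252 and 274 in Siah2 KO males. It differed between Siah2 KO sexes at −0.61 (SE 0.17, adjusted p = 0.0297). Pdia4 was at 143, 84.9 and 45.9 CPM in wild type females against 54.3, 51.1 and 65.2 in Siah2 KO females, and at 96.1, 58.9 and 78.2 in wild type males against 85.6, 98.6 and 67.9 in Siah2 KO males, with −0.57 (SE 0.19, unadjusted p = 0.00831, adjusted p = 0.0624) in the same comparison and a wild type female range that covered that of every other group. Both isomerases were highest in mouse 1089 among the wild type females and lowest in 1091.

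J-domain cochaperones pass chains to Hspa5, and Dnajb9 and Dnajb11 had positive genotype values in females where that of Hspa5 was negative. Dnajb9 was at 24.3, 46.3 and 17.2 CPM in wild type females against 64.9, 58.0 and 83.5 in Siah2 KO females, and at 34.1, 61.9 and 57.7 in wild type males against 58.8, 42.5 and 38.6 in Siah2 KO males. All Siah2 KO females were above all wild type females, at a log2 fold change of 1.23 (SE 0.37, unadjusted p = 0.00738, adjusted p = 0.160), against −0.17 (SE 0.24) in males and with 1.38 (SE 0.47) for the difference. Between Siah2 KO sexes it was at 0.55 (SE 0.21, unadjusted p = 0.0176, adjusted p = 0.101). Dnajb11 was at 64.7, 50.2 and 56.3 CPM in wild type females against 101, 79.9 and 110.2 in Siah2 KO females, and at 135, 109 and 125 in wild type males against 129.9, 101 and 103 in Siah2 KO males. Wild type females were below all other mice, with 0.78 (SE 0.23, unadjusted p = 0.00759, adjusted p = 0.160) for the genotype change in females, 0.92 (SE 0.28) for the female change minus the male change and −1.10 (SE 0.23, adjusted p = 0.0484) between wild type sexes, which alone passed. With 1 mouse left out, that call held only without wild type female 1091, with an adjusted p up to 0.239 in the other fits. Dnajc3, a further J-domain protein, stayed within 192 to 306 CPM in all 12 mice. Creld2 and Sdf2l1, secretory stress genes of low level, had 248 and 413 reads over all mice; Creld2 was −0.94 (SE 0.39, unadjusted p = 0.0368, adjusted p = 0.287) between wild type sexes.

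Single mice were highest or lowest of their group for differing numbers of the 15 chaperones, given here as counts without a test. Wild type female 1089 was highest for 9, while 1090 and 1091 were lowest for 7 and 8. Siah2 KO female 1070 was highest for 8, 1104 lowest for 8, and 1105 highest for 6 and lowest for 5. Wild type male 1055 was highest for 10 and 1086 lowest for 10, and Siah2 KO male 1075 was highest for 10 and 1081 lowest for 12. Leaving 1081 out left 7 of the 12 members called between Siah2 KO sexes, and these were Calr, Hspa5, Hyou1, Manf, Pdia3, Spcs1 and Syvn1.

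Among the stress sensors and transcription factors, Atf4, the effector of the PERK branch, was at 135, 162 and 186 CPM in wild type females against 95.6, 78.5 and 84.7 in Siah2 KO females, and at 209.6, 128 and 121 in wild type males against 113, 143 and 139 in Siah2 KO males. Siah2 KO females were below all other 9 mice, at −0.88 (SE 0.22, unadjusted p = 0.00232, adjusted p = 0.118) against wild type females and −0.61 (SE 0.16, adjusted p = 0.0252) against Siah2 KO males, where it was called. Its female change minus male change was −0.67 (SE 0.31). Xbp1, which IRE1 alpha activates by splicing, was at 141, 99.1 and 58.7 CPM in wild type females against 109.5, 91.2 and 73.4 in Siah2 KO females, and at 121, 82.4 and 204 in wild type males against 131, 159 and 166 in Siah2 KO males. It was called between Siah2 KO sexes at −0.73 (SE 0.17, adjusted p = 0.0145), and 3′ counts do not tell its spliced from its unspliced form. Atf6, the sensor that is cut in the Golgi, was at 57.9, 68.0 and 99.2 CPM in wild type females against 77.4, 59.8 and 71.7 in Siah2 KO females, and at 84.8, 102 and 74.5 in wild type males against 105, 105 and 86.9 in Siah2 KO males, with −0.51 (SE 0.17, unadjusted p = 0.00896, adjusted p = 0.0657) between Siah2 KO sexes. Ddit3, the proapoptotic factor CHOP, had 235 reads in all, a range of 2.15 to 15.5 CPM and no comparison at an unadjusted p under 0.05. Ern1 had 122 reads, at 1.78 to 3.37 CPM in wild type females and 4.88 to 6.05 in wild type males.

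In ER-associated degradation, Syvn1, the ubiquitin ligase HRD1, separated the sexes in both genotypes. It was at 46.9, 29.7 and 22.6 CPM in wild type females against 49.2, 54.7 and 63.4 in Siah2 KO females, and at 90.1, 77.4 and 91.9 in wild type males against 124, 97.8 and 112 in Siah2 KO males. Each male was above each female, at −1.01 (SE 0.17, adjusted p = 0.00143) in Siah2 KO mice, which passed, and −1.39 (SE 0.30, adjusted p = 0.0564) in wild type mice, which did not. By genotype it was the only member at an unadjusted p under 0.05 in both sexes, at 0.76 (SE 0.31) in females and 0.35 (SE 0.16) in males with Siah2 KO higher in each. Mrpl49, which overlaps it, was at a mean of 24.2 CPM. Sel1l, the partner of HRD1, was at 217, 189.9 and 337 CPM in wild type females against 236, 246 and 269 in Siah2 KO females, and at 322, 323 and 298 in wild type males against 391, 337 and 336 in Siah2 KO males, with −0.51 (SE 0.15, adjusted p = 0.0374) between Siah2 KO sexes. Herpud1, a membrane factor of the same complex, was at 389, 889.7 and 722 CPM in wild type females against 499, 509 and 553 in Siah2 KO females, and at 645, 780.1 and 803 in wild type males against 864, 604 and 748 in Siah2 KO males, with −0.51 (SE 0.16, unadjusted p = 0.00639, adjusted p = 0.0527) between Siah2 KO sexes. Edem1, which trims mannose from failing chains, was at 67.1 to 73.0 CPM in wild type females, below all other 9 mice, while Derl1 and Derl2 had log2 fold changes of 0.33 and −0.11 in females.

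Counted over the groups rather than by test, Siah2 KO females did not overlap wild type females in 16 of 44 members passing the filter over 12 libraries, 8 higher (18.2%, beside 10.4% of 9806 genes) and 8 lower (18.2%, beside 12.7%). Between male groups, Siah2 KO lay higher in 4 (beside 4.25%) and lower in 1 (beside 4.75%). Siah2 KO females lay below Siah2 KO males in 19 (43.2%, beside 14.6%) and above them in 1 (beside 14.9%), and wild type females below wild type males in 9 (beside 10.1%) and above them in 4 (beside 12.5%). The 2 female groups stood apart from all other mice in different genes. Wild type females were above the other 9 mice for 2 of 44 members, Sec61a1 and Ssr4 (beside 4.31%), and below them for 6, Stt3a, Spcs2, Spcs3, Dnajb11, Edem1 and Syvn1 (beside 3.22%). Siah2 KO females were below the other 9 mice for 5, Hspa5, Calr, Pdia3, Hyou1 and Atf4 (beside 2.5%), and above them for 0 other than Ost4 (beside 2.37%). Wild type males were highest for 0 members (beside 0.316%) and lowest for 0 (beside 0.428%). Siah2 KO males were highest for Syvn1 (beside 0.816%) and lowest for Spcs1 (beside 1.04%).

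A wider set of 140 genes in 9 lists, also chosen with earlier results known, covered signal recognition, the ER membrane protein complex, dolichol-linked glycan assembly, glycan trimming, further folding enzymes, stress signalling, degradation and ER export. In Siah2 KO females against wild type females, 123 were tested and 0 called, with 12 higher (beside 7.3% of all genes) and 16 lower (beside 8.31%) at an unadjusted p under 0.05. The smallest adjusted p, 0.115, was at Fkbp2, an ER prolyl isomerase (log2 fold change 1.02). In males 0 of 120 were called, with 1 at an unadjusted p under 0.05 (beside 4.05% of all genes), and with both sexes combined 0 of 120, with 8 (beside 5.65%). For the female change minus the male change 0 of 124 were called, with 24 at an unadjusted p under 0.05 (beside 14.1%), and the smallest adjusted p was 0.107 at Vcp, the ATPase that extracts chains for degradation (−0.95). In wild type females against wild type males 1 of 121 was called (beside 1.39%), Fkbp2, lower at −1.22.

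Siah2 KO females against Siah2 KO males gave 10 calls among 122 tested genes of these lists, 6 lower and 4 higher in females. Lower were Uggt1, the folding sensor that reglucosylates chains (−0.90, adjusted p = 0.00127), Vcp (−0.77), Sec63 (−0.61) and Tram1 (−0.55) of translocation, the isomerase Txndc5 (−0.64) and Mpdu1 of dolichol-sugar use (−0.87). Higher were Dpm1, a dolichol-mannose synthase subunit (0.77), the ER ubiquitin ligase Rnf139 (0.56), the COPII coat gene Sec23a (0.54) and Vkorc1 (0.52). The share called, beside 11.5% of all genes, was 8.20%. The median over the 122 genes was −0.10, beside 0.00 over all genes tested.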

How the data were processed

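The authors trimmed, mapped and counted QuantSeq 3′ reads (sequenced on HiSeqX10) with Illumina BaseSpace applications and deposited 1 table per sex of raw counts per gene symbol, for the livers of 12 mice in 4 groups of 3. The submitters' processing notes name mm10, STAR and DESeq. Their versions, the gene annotation and the strand setting were not given in the sources used here. Columns were matched to samples by mouse number. The genes and lists were chosen with earlier results of these data known. All 23420 symbols entered each fit. The two-sided quasi-likelihood test of edgeR 4.0.16 (filterByExpr, TMM) was run under R 4.3.3 for 6 comparisons, with Benjamini-Hochberg adjustment over all genes tested and a threshold of 0.05 for a call; each standard error follows from the fold change and its test statistic. CPM are counts per 1000000 of the TMM-scaled total. Totals were 1293688 to 4056144 reads, with no molecular identifiers used. Mice were the replicates, so p-values measure the spread between 3 livers per group. With the sexes combined there was no term for sex, so the spread within each genotype there includes the difference between the sexes.

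Alternatives were DESeq2 1.42.0, limma-voom (limma 3.58.1), a minimum of 10 counts in each library, no filter beyond 1 count, RLE scaling, spline offsets (5 degrees of freedom) for the GC content of the last 500 nucleotides or for transcript length (GENCODE M1, found for 45 of the 46 genes), a fit of all 12 mice in 4 groups, a term for sex with the sexes combined, and each mouse left out. The edgeR fits of the 6 comparisons were tested on simulated data in which 200 genes had a log2 change of 2. Of these, 57.5% were recovered for the female change minus the male change, the least, and 94.5% in males, the most. False calls made up 4.57% of calls in females, the least, and 9.18% between Siah2 KO sexes, the most, at the same threshold of 0.05. Gene positions, windows around starts and motif searches used RefSeq tables of GRCm38.p6, the build that mm10 names, with the windows found for 38 genes. Values in every mouse are given for Ost4, for genes with an adjusted p under 0.05 or an unadjusted p under 0.01 in any comparison, and for the 5 of highest level; genes with an unadjusted p under 0.05 are named with their log2 fold change, and the rest by range or as contrast to those. Genes outside the 46 are named where called, and otherwise by the smallest p per comparison. Plots were drawn with matplotlib 3.10.9 under Python 3.11.15 (numpy 2.4.6, pandas 2.3.3).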

Additional observations from a re-analysis of the deposited data

Results flagged for a closer look

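A difference between the Siah2 KO change of females and that of males set 2 genes apart, 1 by test and 1 as a description. For Sec61a1 the female change less the male change came to −1.61 on the log2 scale (SE 0.28, adjusted p = 0.0460 by edgeR's quasi-likelihood test), with every Siah2 KO female below every wild type female and every Siah2 KO male above every wild type male. This call was lost with a GC content offset (adjusted p = 0.0514) and in 10 of the 12 fits that left out 1 mouse, with an adjusted p from 0.00463 to 0.146 over the 12. For Ost4 the difference was 2.87 (SE 0.52). Ost4 was selected by this value, so it was not tested, and it is given as a description.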

How the results depend on the processing

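No paired analysis was possible because each mouse number names 1 animal in 1 group. Counts of members called, other than Ost4, moved with the settings as follows. The share of all genes called at the same setting is in brackets. In females the count was 5 with DESeq2 (3.7%), 5 with no filter beyond 1 count (2.82%) and 7 with all 12 mice in 1 fit (4.35%), beside 0. For the female change minus the male change it was 4 with DESeq2 (3.89%), 2 with limma-voom (0.286%), 5 with no filter (1.82%), 2 with at least 10 counts (0.467%) and 0 with the GC content offset (0%), beside 1. Between wild type sexes it was 6 with DESeq2 (3.74%), 6 with no filter (3.17%), 1 with at least 10 counts (0.728%) and 6 with all 12 mice (5.15%), beside 2, and between Siah2 KO sexes 6 with all 12 mice (3.59%), beside 12. For members at an unadjusted p under 0.05, the brackets hold the share of all genes at that limit. In males they numbered 1 with DESeq2 (1.51%) and 4 with no filter (3.99%), beside 2 (4.05%). They numbered 1 each with the GC content offset (4.08%), the length offset (4.15%) and all 12 mice (2.29%). With the sexes combined they numbered 5 with a term for sex (7.21%), beside 2 (5.65%). Between wild type sexes they numbered 15 with all 12 mice (20%), beside 7 (15.2%). Leaving out 1 mouse at a time gave 0 to 9 calls in females (0% to 9.64% of all genes) and 0 to 5 for the difference (0% to 5.15%). It gave 0 to 6 between wild type sexes (0.451% to 7.73%) and 7 to 13 between Siah2 KO sexes (5.14% to 11.2%). In males it gave 0 to 0 (0% to 0.0326%), and so it did with the sexes combined (0% to 0.011%). The numbers at an unadjusted p under 0.05 then ran from 7 to 17 in females (10% to 26.6% of all genes). They ran from 0 to 4 in males (2.96% to 5.39%) and 1 to 4 combined (3.35% to 8.58%). For the difference they ran from 6 to 17 (10.5% to 20.1%). Between wild type sexes they ran from 6 to 20 (10% to 24.7%) and between Siah2 KO sexes from 16 to 20 (20.1% to 25.9%). The causes were not tested. Alternatives were also counted for 53 named log2 fold changes, those of members other than Ost4 at an unadjusted p under 0.05 in the main fits. Of their 804 alternative values, 690 kept their direction and side of the threshold, 65 newly passed it, 49 no longer did and 0 changed direction. Values picked for lying far from 0 and fitted again on mostly the same mice could hardly change direction, so that 0 is no test of them. Depth limits the genes of low level, for which 1 read was worth up to 0.757 CPM.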

Other observations

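The wider lists of ER genes differed in direction between Siah2 KO sexes, given here as counts without a test, beside a median log2 difference of −0.0016 over all genes tested. Of 9 tested genes of glycan trimming and the calnexin cycle, 8 were lower in females, with a median log2 difference of −0.30, and the 18 further disulfide and prolyl folding enzymes had a median of −0.33 with 12 lower. Of 19 tested genes of dolichol-linked glycan assembly, which builds the sugar tree that the oligosaccharyltransferase transfers, 11 were higher in females and the median was 0.13. ER export genes split evenly, 9 higher and 9 lower, with a median of 0.04. In Siah2 KO females against wild type females, 52.7% of all genes tested were lower, at a median of −0.03. Glycan trimming genes were lower in 7 of 9 with a median of −0.45. Genes of ER-associated degradation outside the 46 were higher in 14 of 20 with a median of 0.18. At an unadjusted p under 0.05 (edgeR), however, 2 of these degradation genes were higher and 3 lower. No gene of either list passed adjustment.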
